A study of Mus musculus with 16 samples.

Results

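The 7 chemokine receptor genes described here, Cxcr3, Cxcr4, Cxcr5, Cxcr6, Ccr2, Ccr9 and Cx3cr1, were chosen by name as receptors for inflammatory and follicular chemokines. Each had exactly 1 probe set with a single gene symbol, so 7 of the 22180 genes measured are members. Their RNA levels come from 16 Affymetrix arrays of spleen CD8 T cells, with 4 arrays in each of 4 groups. Chimeric mice with bone marrow that was either wild-type (WT) or deficient in Il4i1 (KO) were the source, and each mouse was also given Eµ-TCL1 cells, which model chronic lymphocytic leukaemia (CLL) in mice. All mice were female and of the strain given as C56BL/6, and all carried leukaemia, so no group shows these receptors without it. Effector cells were sorted as CD44+ CD127- and memory cells as CD44high CD127high, 5 weeks after the transplantation. The 4 groups are effector WT, effector KO, memory WT and memory KO. Il4i1 encodes a secreted amino acid oxidase. The labels give neither the age of the mice nor the host cells left in the chimeras, and since they do not state that each sample is its own mouse, the p-values speak only of variation from sample to sample.

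Chemokine receptors are G protein-coupled receptors that steer cells along gradients of secreted or membrane-bound chemokines. CXCR3, CCR2, CXCR6 and CX3CR1 guide activated T cells and other leukocytes to inflamed tissue, CXCR5 and CXCR4 position lymphocytes in and around B cell follicles and in bone marrow, and CCR9 leads cells to the thymus and small intestine. In CD8 T cells CX3CR1 is known as a mark of cytotoxic effector differentiation, CXCR3 as a receptor of memory and early effector cells, CXCR6 as a receptor of tissue-resident and exhausted cells, and CXCR5 as a mark of follicular and stem-like cells in chronic stimulation.

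All values are log2 expression as deposited, and a difference is effector minus memory or KO minus WT on that scale, with its standard error (SE). A gene was called at an adjusted p under 0.05 from limma with Benjamini-Hochberg adjustment over all 22180 genes. The 5 CD8 T cell markers (Cd8a, Cd8b1, Cd3e, Cd3d and Cd3g) lay above the array median on all 16 arrays, with a mean between 11.32 and 11.54. Il7r, which encodes the sort marker CD127, was 3.83 to 4.46 in effector WT, 5.00 to 6.60 in effector KO and 10.29 to 11.27 in the memory groups. Il7r was higher in effector KO than in effector WT (1.65 ± 0.25, limma adjusted p = 0.0183). Cd44, the gene of the sort marker CD44, had means of 6.17 in effector WT and 5.89 in effector KO. Its means were 6.81 in memory WT and 6.75 in memory KO, and it was called lower in effector cells of both genotypes. Array effector KO 4 stood apart, with correlations of 0.965 to 0.974 to the other arrays over genes, against 0.971 to 0.994 for all other pairs. On array effector KO 1 Il7r was the highest of the effector arrays, at 6.60.

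Across the series Cxcr3 was lower in effector than in memory cells in both genotypes, and it was the receptor that passed the test in each. The mean of Cxcr6 was 0.59 above memory in effector cells of either genotype, and 0.71 and 0.70 below WT in KO effector and memory cells, without passing the test. The mean of Cxcr5 was 0.82 below memory in effector WT. Ccr2 and Cxcr4 overlapped between the groups in every comparison, and Ccr9 lay under the array median on all arrays but 1. Of the 7 receptors, 1 was called between effector and memory cells in WT (3.22% of all genes were called) and 1 in KO (7.43% of all genes), in both cases Cxcr3. Between KO and WT, 0 were called in effector cells (0.0541% of all genes) and 0 in memory cells (0.113% of all genes). At an unadjusted limma p under 0.05 there were 2 receptors in effector cells, Cxcr3 and Cxcr6, and 1 in memory cells, Cxcr6, against 9.32% and 11.3% of all genes.

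**Figure D1:**
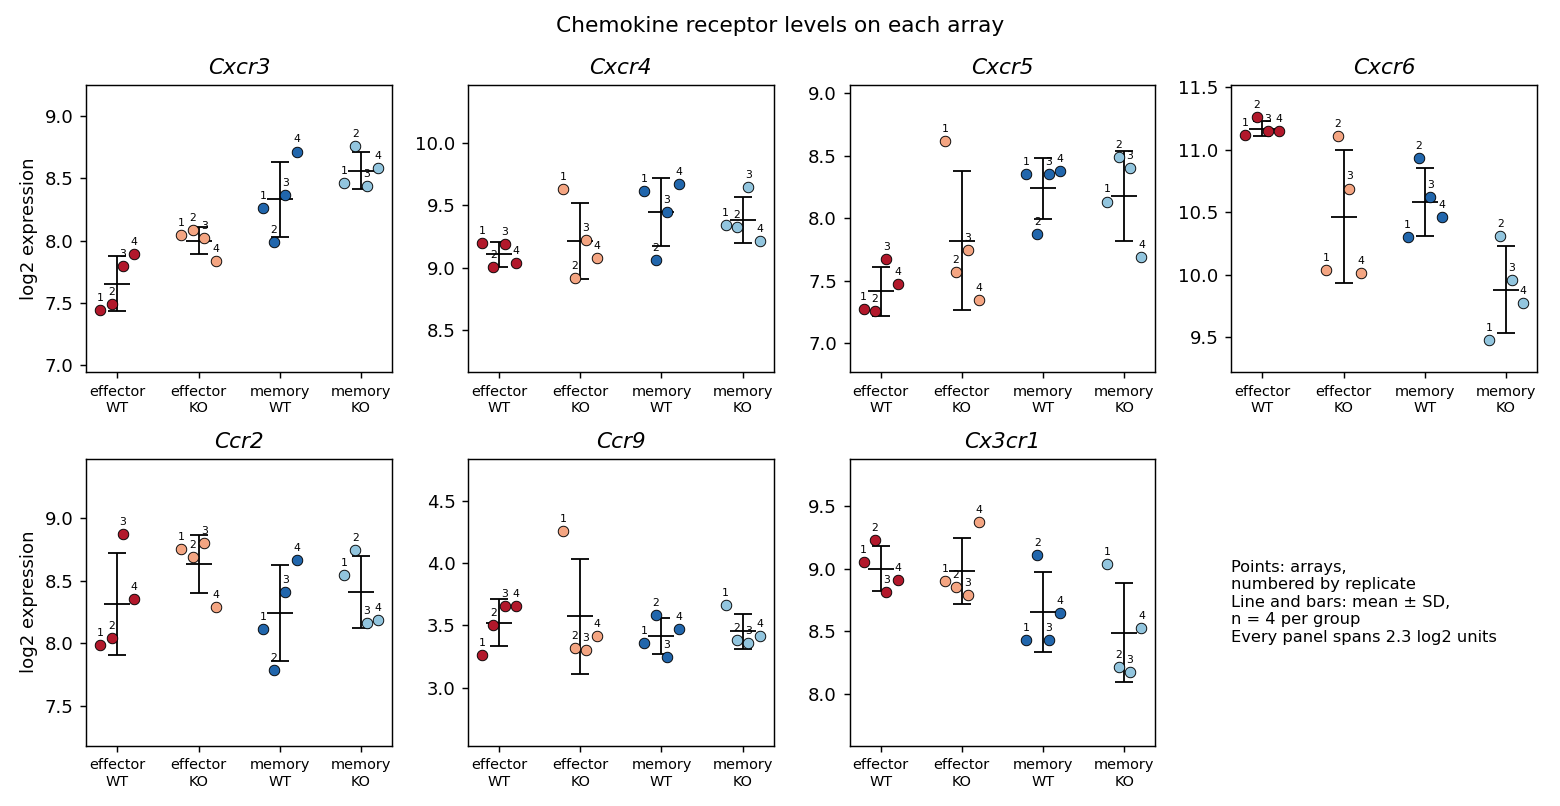
Log2 expression of the 7 receptors on each of the 16 arrays, with the mean and SD of each group of 4. Cxcr3 has its lowest mean in effector WT (7.66) and its highest in memory KO (8.56), Cxcr6 has its highest in effector WT (11.17) and its lowest in memory KO (9.88), and Ccr9 is at 4.26 on effector KO 1.

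The sequences upstream of Cxcr3 and Cxcr6 are shown because these receptors had the subset difference called in both genotypes (Cxcr3) and the lowest p between KO and WT among the 7 (Cxcr6). They are the 250 bases before the RefSeq gene start in GRCm38.p6, written 5′ to 3′ on the gene's strand, and capitals mark matches to any of the motifs TGTGGT (RUNX), TCACAC (T-box half-site) and CAGGTG (E-box), searched on both strands. The Cxcr3 stretch is chrX:101734148-101734397, minus strand, and the Cxcr6 stretch is chr9:123806227-123806476, plus strand.
Cxcr3: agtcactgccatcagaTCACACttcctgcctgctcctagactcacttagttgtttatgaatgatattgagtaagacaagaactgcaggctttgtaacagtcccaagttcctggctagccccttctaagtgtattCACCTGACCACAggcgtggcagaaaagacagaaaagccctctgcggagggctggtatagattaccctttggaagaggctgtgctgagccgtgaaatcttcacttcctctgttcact
Cxcr6: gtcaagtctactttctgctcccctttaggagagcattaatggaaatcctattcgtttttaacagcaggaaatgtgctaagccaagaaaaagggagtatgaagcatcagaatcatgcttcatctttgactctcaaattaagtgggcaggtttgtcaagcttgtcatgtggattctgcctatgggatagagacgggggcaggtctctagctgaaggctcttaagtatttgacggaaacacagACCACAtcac
In Cxcr3 the T-box half-site match begins 234 bases before the start, the E-box match 116 and the RUNX match 110, the last 2 side by side without overlap. In Cxcr6 the RUNX match begins 10 bases before the start, and no other match was present. The set of promoter stretches held 6 of the 7 receptors and lacked Cxcr5, which was therefore not searched. Of those 6, Cx3cr1 also had a RUNX match and Ccr9 an E-box match. RUNX letters occur in 14% of all 32851 promoter stretches of this length, T-box letters in 12.3% and E-box letters in 17.2%, and a match describes letters only. On chromosome 9 Ccr9 and Cxcr6 are near neighbours, with 1 coding gene starting between them, and 4 coding genes start between Cxcr6 and Ccr2.

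Cxcr3 encodes the receptor for CXCL9, CXCL10 and CXCL11, chemokines that interferon gamma induces. In effector WT it was 7.45, 7.49, 7.80 and 7.89 on arrays 1 to 4, and in memory WT 8.26, 7.99, 8.36 and 8.71. Every effector WT array lay below every memory WT array. In effector KO it was 8.04, 8.09, 8.02 and 7.84, and in memory KO 8.46, 8.76, 8.43 and 8.58, again without overlap. Cxcr3 was thus 1.60-fold lower in effector than in memory cells in WT (-0.67 ± 0.14 SE, limma adjusted p = 0.0139) and 1.47-fold lower in KO (-0.56 ± 0.14, limma adjusted p = 0.0239). Averaged over both genotypes, a comparison added after the values were seen, it was -0.62 ± 0.10 (limma adjusted p = 0.00059). The WT call was lost without effector WT 1 (adjusted p = 0.0537) or effector WT 2 (0.0522), and the KO call without memory KO 2 (0.0694) or memory KO 4 (0.0647).

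Cxcr3 was higher in KO than in WT in both subsets without passing the test. The difference was 0.34 ± 0.14 in effector cells (limma adjusted p = 0.511), where 3 of 4 KO arrays lay above every WT array, and 0.23 ± 0.14 in memory cells (adjusted p = 0.589). The order of the group means, from memory KO through memory WT and effector KO to effector WT, had an overlap between each pair of neighbours. The 95% interval of the KO difference ran from 0.04 to 0.64 in effector cells and from -0.07 to 0.53 in memory cells. The genotype difference was not shown to differ between subsets (0.12 ± 0.20, adjusted p = 0.948).

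Cxcr6 encodes the receptor for CXCL16, a membrane-bound chemokine of antigen-presenting cells. In effector WT it was 11.12, 11.26, 11.15 and 11.15, the tightest group of any receptor (SD 0.06, n = 4). In effector KO it was 10.04, 11.11, 10.69 and 10.01, so that arrays 1 and 4 were low and array 2 close to WT. All 4 effector KO arrays lay below all effector WT arrays, and Cxcr6 was the single receptor of 7 whose effector KO and WT groups did not overlap (4.65% of all genes). In memory WT it was 10.30, 10.94, 10.62 and 10.46, and in memory KO 9.48, 10.31, 9.95 and 9.77. The memory groups overlapped only through memory KO 2 (10.31) and memory WT 1 (10.30), so 0 of the 7 receptors had memory KO and WT groups that did not overlap (6.49% of all genes).

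The KO mean of Cxcr6 was 1.63-fold below WT in effector cells (-0.71 ± 0.22, limma adjusted p = 0.442) and 1.62-fold below in memory cells (-0.70 ± 0.22, adjusted p = 0.242). The 95% intervals were -1.17 to -0.24 and -1.17 to -0.23. The difference between these was -0.01 ± 0.31 (adjusted p = 0.998), with an interval from -0.67 to 0.66. Averaged over both subsets, again a comparison added after the values were seen, Cxcr6 was at -0.70 ± 0.16 and missed the threshold (limma adjusted p = 0.0673), while 0.194% of all genes passed. Leaving out effector KO 2, the KO array nearest WT, brought it past the threshold (-0.81, adjusted p = 0.012), and leaving out any other array did not. Over all alternatives tried, the effector difference lay between -0.92 and -0.50.

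Between subsets Cxcr6 was 1.51-fold higher in effector than in memory cells in WT (0.59 ± 0.22, limma adjusted p = 0.202), where the groups did not overlap, and 1.5-fold higher in KO (0.59 ± 0.22, adjusted p = 0.129), where they did. Neither passed in the main fit of the 16 arrays, which used no array weights and no term for the replicate number. The WT difference passed with array weights (adjusted p = 0.0369) or with the compared groups alone (0.0228), and the KO difference with array weights (0.0303). Both also passed in fits with a term for the replicate number, alone or with genotype, although the numbers are not shown to pair the samples. Averaged over both genotypes the difference was 0.59 ± 0.16 and passed (limma adjusted p = 0.0199). In KO the difference passed without effector KO 4 (0.73, adjusted p = 0.0499), the array that stood apart. From high to low the group means were effector WT at 11.17, memory WT at 10.58, effector KO at 10.46 and memory KO at 9.88, with overlap between all neighbours after the first. Memory WT and effector KO, which differ in both factors, were thus at similar levels. In effector KO the arrays with the lowest Cxcr6, 1 and 4, were also those with the highest Il7r (6.60 and 5.75), and the part of the sort gate in this was not tested.

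**Figure D2:**
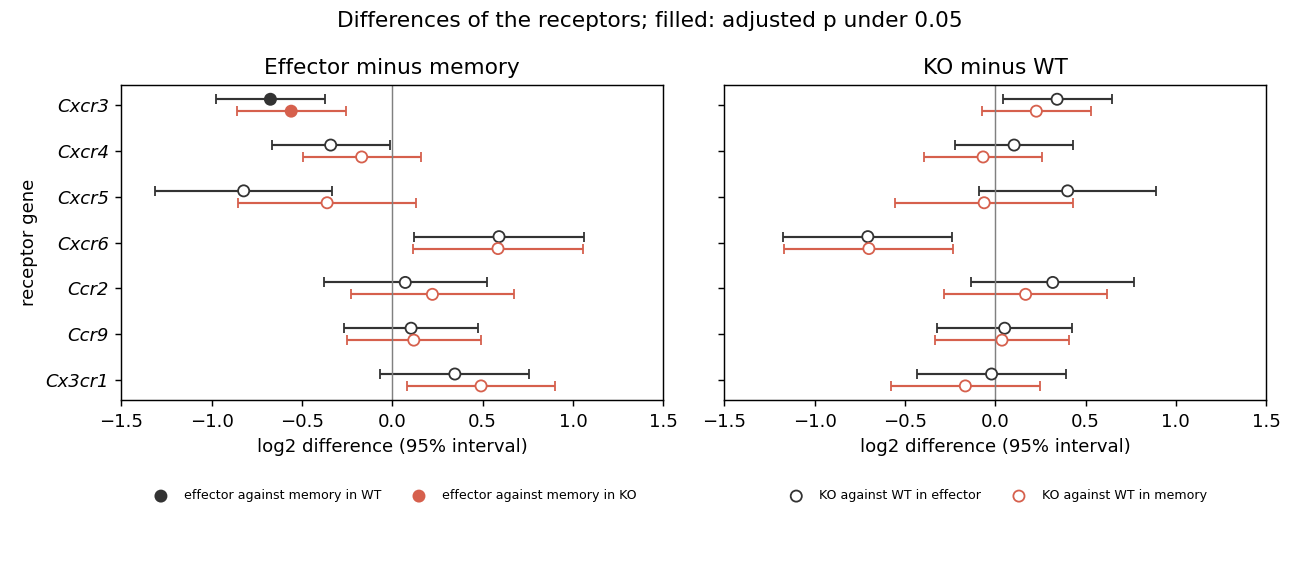
Differences of the 7 receptors on the log2 scale with 95% intervals from limma, effector minus memory on the left and KO minus WT on the right. Filled points passed an adjusted p of 0.05, and these are the Cxcr3 differences between effector and memory cells, at -0.67 in WT and -0.56 in KO.

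Cxcr5 encodes the receptor for CXCL13, the chemokine of B cell follicles. It was 7.27, 7.26, 7.67 and 7.47 in effector WT and 8.35, 7.87, 8.36 and 8.38 in memory WT. The groups did not overlap, and memory WT 2 lay apart from the other memory WT arrays. The difference was -0.82 ± 0.23, or 1.77-fold, and missed the threshold (limma adjusted p = 0.0665). It passed without effector KO 1 (adjusted p = 0.0147), effector KO 4 (0.0394) or memory WT 2 (-0.95, 0.0485), the first 2 of which enter only through the common spread. With all arrays kept, it also passed with array weights (adjusted p = 0.00649), with the compared groups alone (0.00704) and among genes above the array median on at least 4 arrays (0.0491). In all, 3 of the 7 receptors, Cxcr3, Cxcr5 and Cxcr6, had effector and memory WT groups that did not overlap (13.2% of all genes), and 1, Cxcr3, had such groups in KO (10.2% of all genes).

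In KO, Cxcr5 was 8.62, 7.57, 7.75 and 7.34 in effector cells and 8.13, 8.49, 8.40 and 7.69 in memory cells. Effector KO 1 was the highest Cxcr5 array of all 16, and the groups overlapped (-0.36 ± 0.23, limma adjusted p = 0.428). Without effector KO 1 that difference was -0.63 (adjusted p = 0.0606). Over both genotypes Cxcr5 was 1.51-fold lower in effector cells and passed (-0.59 ± 0.16, limma adjusted p = 0.0251). That call was lost in the 6 fits without effector KO 2, effector WT 1, effector WT 2, memory KO 2, memory WT 1 or memory WT 3, with adjusted p-values from 0.0506 to 0.0528. KO minus WT was 0.40 ± 0.23 among effector arrays (adjusted p = 0.608), and 0.14 without effector KO 1. Among memory arrays it was -0.06 ± 0.23 (adjusted p = 0.954). The subset difference was not shown to differ between genotypes (0.46 ± 0.33, adjusted p = 0.867, and 0.20 without effector KO 1).

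CXCR5 is abundant on B cells, so the B and CLL cell markers stand beside these values. The mean of the 9 measured markers was 3.67 to 4.04 in effector KO, 3.70 to 3.82 in effector WT, 4.16 to 4.57 in memory KO and 4.69 to 5.39 in memory WT. Of the 9, 7 were called lower in effector than in memory WT, against 3.22% of all genes. Among them were Ms4a1, which encodes CD20, at -2.24 ± 0.30 (limma adjusted p = 0.000417) and the B cell receptor regulator Cd22 at -1.36 ± 0.16. In KO 1 of the 9 was called lower in effector than in memory cells, against 7.43% of all genes. That gene was Cd79b, a part of the B cell receptor, at -1.10 ± 0.24 (limma adjusted p = 0.011). Between memory KO and memory WT 1 of the 9 was called lower, Cd22 at -1.04 ± 0.16 (limma adjusted p = 0.0145), against 0.113% of all genes. At an unadjusted limma p under 0.05, 5 of the 9 were lower, against 11.3% of all genes. In memory KO every array was below every memory WT array in this mean, while Cxcr5 overlapped between those groups. Effector KO 1, the array with the highest Cxcr5, had a marker mean of 3.75, within the effector range. The part of B or CLL cell RNA in the subset difference was not tested, and in sorted bulk samples fewer cells of a type cannot be told apart from less RNA per cell.

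Cxcr4, whose product binds CXCL12 and retains cells in bone marrow, differed less. Its values were 9.20, 9.01, 9.19 and 9.04 in effector WT, 9.63, 8.91, 9.22 and 9.08 in effector KO, 9.61, 9.06, 9.45 and 9.67 in memory WT, and 9.34, 9.33, 9.64 and 9.22 in memory KO. The groups overlapped in all 4 comparisons. Effector minus memory was -0.34 ± 0.15 in WT (limma adjusted p = 0.326) and -0.17 ± 0.15 in KO (adjusted p = 0.611). KO minus WT was 0.10 ± 0.15 in effector cells, with a 95% interval from -0.22 to 0.43, and -0.07 ± 0.15 in memory cells, with one from -0.39 to 0.26. Over both genotypes Cxcr4 was at -0.26 ± 0.11 (adjusted p = 0.162), and it passed without effector KO 1 (-0.33, adjusted p = 0.042).

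Cxcr4 and Cxcr5 followed each other from array to array. Their Pearson r over the 16 arrays was 0.85, and it was 0.80 once each group's mean was subtracted. Arrays effector KO 1, memory KO 3 and memory WT 1, 3 and 4 were high in both, and memory WT 2 was the lowest memory WT array in both. Cxcr3 and Ccr2 had an r of 0.82 after the group means were subtracted and 0.31 before. These are 2 of 21 receptor pairs, and arrays share RNA input and amplification, so the values are descriptive.

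**Figure D3:**
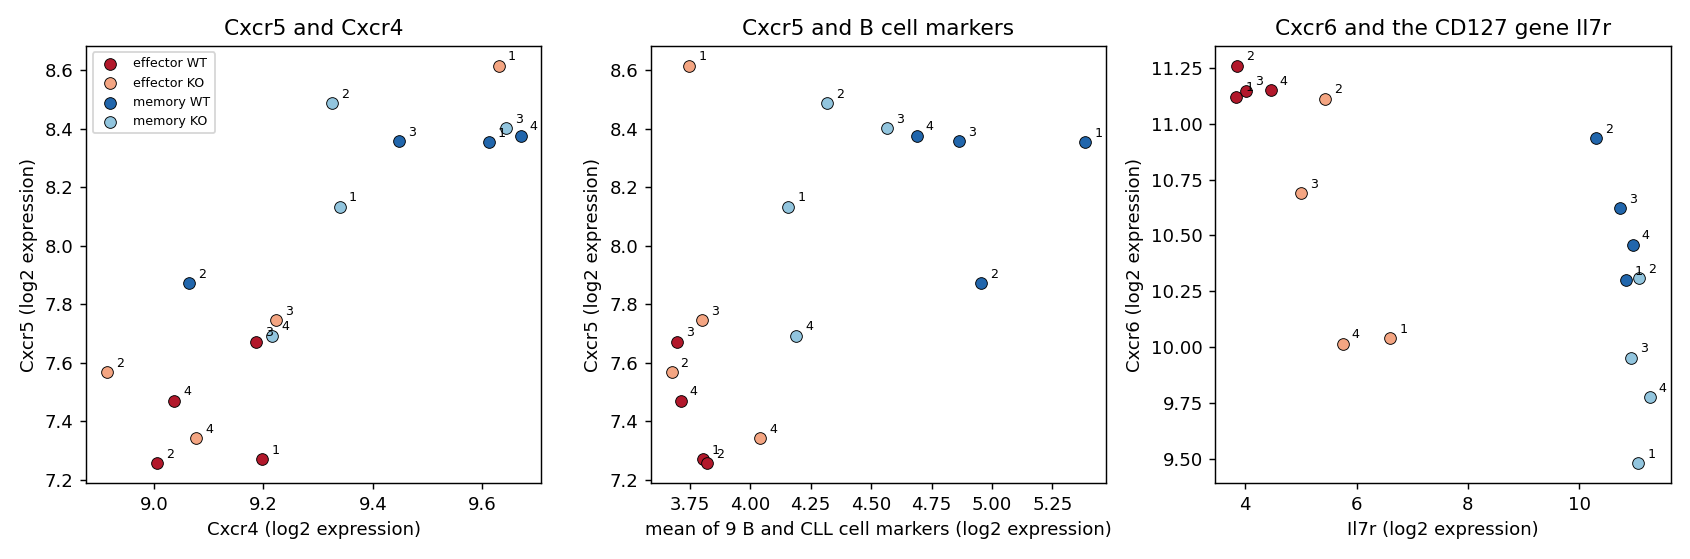
Each point is 1 array, numbered by replicate within its group, on log2 expression axes: Cxcr5 against Cxcr4, Cxcr5 against the mean of 9 B and CLL cell markers, and Cxcr6 against the CD127 gene Il7r. Cxcr5 and Cxcr4 rise together (r = 0.85 over 16 arrays), effector KO 1 has the highest Cxcr5 at a marker mean of 3.75, and effector KO 1 and 4 have the lowest Cxcr6 of the effector arrays.

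Cx3cr1 encodes the receptor for CX3CL1, or fractalkine. It was 9.05, 9.23, 8.82 and 8.91 in effector WT and 8.91, 8.86, 8.79 and 9.37 in effector KO, where the highest array was effector KO 4. In memory WT it was 8.43, 9.11, 8.43 and 8.65, and in memory KO 9.04, 8.22, 8.18 and 8.53. Arrays memory WT 2 and memory KO 1 reached effector levels, while the other memory arrays lay below all effector arrays. The subset difference was 0.35 ± 0.19 in WT (limma adjusted p = 0.471) and 0.49 ± 0.19 in KO (adjusted p = 0.15), and the latter passed without memory KO 1 (0.67, adjusted p = 0.0342). Over both genotypes the Cx3cr1 mean was 1.34-fold higher in effector cells and missed the threshold (0.42 ± 0.14, adjusted p = 0.0585). It passed without memory KO 1 (adjusted p = 0.0115) or memory WT 2 (0.0206). With all arrays kept, it passed with array weights (adjusted p = 0.0271), among brighter genes (0.0411) and with limma's trend and robust settings (0.049). KO minus WT was -0.02 ± 0.19 in effector cells (95% interval -0.43 to 0.39) and -0.17 ± 0.19 in memory cells (-0.58 to 0.25).

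Ccr2, the receptor for CCL2 and related monocyte chemoattractants, was 7.98, 8.04, 8.87 and 8.35 in effector WT and 8.75, 8.69, 8.80 and 8.29 in effector KO. It was 8.11, 7.78, 8.41 and 8.66 in memory WT and 8.54, 8.75, 8.16 and 8.18 in memory KO. The 4 groups overlapped throughout, and the spread among effector WT arrays (SD 0.41, n = 4) exceeded every difference between group means. KO minus WT was 0.32 ± 0.21 in effector cells (limma adjusted p = 0.649) and 0.17 ± 0.21 in memory cells (adjusted p = 0.831). Effector minus memory was 0.07 ± 0.21 in WT, with a 95% interval from -0.38 to 0.52, and 0.22 ± 0.21 in KO, with one from -0.23 to 0.67.

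Monocytes and NK cells also express Ccr2 and Cx3cr1. The 8 measured monocyte and macrophage markers had means of 4.96 to 5.31 in effector KO, 5.22 to 5.32 in effector WT, 5.05 to 5.97 in memory KO and 5.35 to 5.76 in memory WT. Of these 8, 2 were called lower in effector than in memory WT, against 3.22% of all genes. These were Csf1r at -0.98 ± 0.21 and Lyz2 at -1.35 ± 0.29. In KO 1 was called lower, Csf1r, and 1 higher, Cd68 at 0.74 ± 0.20 (limma adjusted p = 0.0372), against 7.43% of all genes. The 3 measured NK cell markers had means of 4.28 to 4.81 in the effector groups and 5.31 to 5.97 in the memory groups. The NK cell marker mean was thus higher on every memory array than on every effector array. Of the 3, 1 was called lower in effector than in memory WT, Fcer1g, against 3.22% of all genes. In KO 2 were called lower, Klrb1c and Fcer1g, against 7.43% of all genes. The mean of Fcer1g was 6.17 in effector WT, 8.03 in memory WT, 6.03 in effector KO and 7.68 in memory KO. The part of monocyte or NK cell RNA in the Ccr2 and Cx3cr1 values was not tested. Ncr1, an NK cell receptor gene, lay above the array median on 3 of 16 arrays.

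Ccr9, the receptor for CCL25, lay under the array median on 15 of the 16 arrays. It was 3.26 to 3.66 in effector WT, 3.25 to 3.59 in memory WT and 3.36 to 3.66 in memory KO. In effector KO it was 3.30 to 3.41 on arrays 2, 3 and 4 and 4.26 on effector KO 1. With no detection call used, the distance of such a level from no expression is unknown. The differences lay between 0.04 and 0.12 in the 4 comparisons, with standard errors of 0.18. Without effector KO 1, effector KO was at -0.18 against effector WT and at -0.11 against memory KO. Both of these differences thus changed sign without that array, and neither was called. The 5 plasmacytoid dendritic cell markers, genes of a cell type known for Ccr9, had means of 4.58 to 4.96 in the effector groups and 4.50 to 5.72 in the memory groups. These means join markers that moved in opposite directions. Of the 5, 1 was called lower in effector than in memory WT, Spib, and 1 higher, Pacsin1, against 3.22% of all genes. Pacsin1 was also the 1 marker called in KO, again higher in effector cells, against 7.43% of all genes.

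Among the other chemokine receptors, Ccr7 was lower in effector than in memory cells of both genotypes. Of 15 measured, 3 were called lower and 0 higher in effector than in memory WT (20%, against 3.22% of all genes). In KO 1 was called lower and 0 higher (6.67%, against 7.43% of all genes). The median difference was -0.27 in WT (all genes 0.01) and -0.07 in KO (all genes 0.01). Ccr7, the lymph node homing receptor, was called in both, at -2.46 ± 0.23 in WT (limma adjusted p = 2.29e-05) and -2.94 ± 0.23 in KO. Ccr1 (-0.54 ± 0.14) and Ccr4 (-0.59 ± 0.14) were the others in WT, and both lay under the array median on all 16 arrays. Between KO and WT 0 of 15 were called in either subset by limma. Ccr8, a receptor of regulatory and skin-homing T cells, was at -0.91 ± 0.23 in effector KO (adjusted p = 0.327). It lay above the array median on only 2 effector KO arrays, 3 effector WT arrays and 0 arrays of either memory group. Ccrl2, an atypical receptor that presents chemerin, was at -1.13 ± 0.44 in effector KO and -1.75 ± 0.44 in memory KO (adjusted p = 0.159). At an unadjusted limma p under 0.05, 1 of the 15 was higher and 3 were lower in effector KO (9.32% of all genes). In memory KO 0 of the 15 were higher and 1 was lower (11.3% of all genes).

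Cxcl9 was called lower in effector than in memory cells of both genotypes. Of 12 ligands of the 7 receptors measured, 3 were called lower and 0 higher in WT (25%, against 3.22% of all genes). In KO 1 was called lower and 0 higher (8.33%, against 7.43% of all genes). The median was -0.20 in WT and also -0.20 in KO. Cxcl9, a ligand of CXCR3, was called in both, at -1.20 ± 0.18 in WT (limma adjusted p = 0.00107) and -0.79 ± 0.18 in KO (adjusted p = 0.0118). Cxcl10, a second CXCR3 ligand, was at -0.85 ± 0.22 in WT (adjusted p = 0.0473), and Cxcl16, the ligand of CXCR6, at -1.12 ± 0.28 in WT (adjusted p = 0.0373). As given above, 7 of the 9 B and CLL cell markers were also called lower in effector than in memory WT, against 3.22% of all genes. Of the 8 monocyte and macrophage markers, 6 had lower means in effector WT, 2 of them called (Csf1r and Lyz2). The other 2, Cd68 and Itgam, had higher means there. The part of B, CLL or monocyte cell RNA in the ligand levels was not tested. Between KO and WT 0 ligands were called in either subset. At an unadjusted limma p under 0.05 there were 0 in effector cells (9.32% of all genes) and 2 in memory cells (11.3% of all genes). The 2 were lower in memory KO, Cxcl16 at -0.65 ± 0.28 and Cxcl9 at -0.40 ± 0.18.

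**Figure D4:**
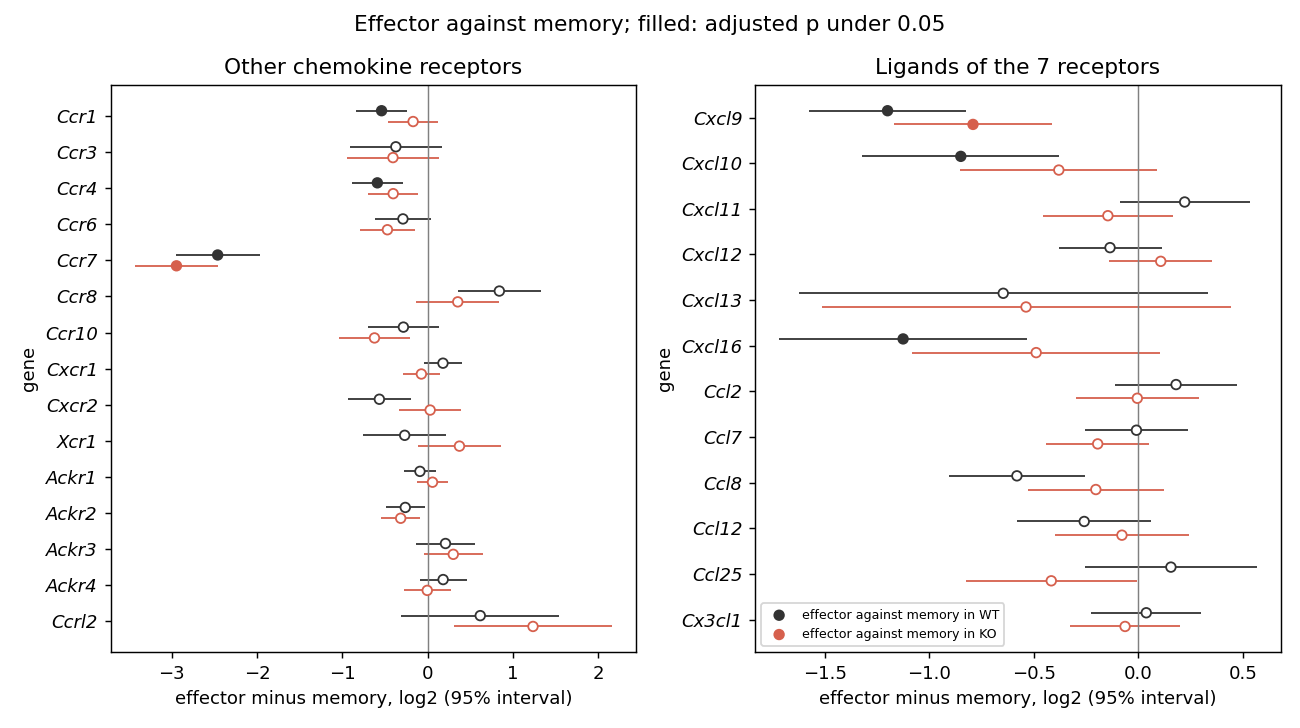
Effector minus memory differences on the log2 scale, with 95% intervals from limma, of 15 other chemokine receptors and 12 ligands of the 7 receptors, in WT and KO. Filled points passed an adjusted p of 0.05: Ccr7 and Cxcl9 in both genotypes, and Ccr1, Ccr4, Cxcl10 and Cxcl16 in WT.

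Among 22 genes that carry or end the receptors' signal, 1 was called higher and 1 lower in effector than in memory WT. That was 9.09% of them, against 3.22% of all genes. In KO 2 were called higher and 2 lower (18.2%, against 7.43% of all genes). Rgs1, which shortens G protein signals of chemokine receptors, was higher in effector cells, by 0.73 ± 0.17 in WT (limma adjusted p = 0.0288) and 1.03 ± 0.17 in KO (adjusted p = 0.00156). Rgs16, of the same family, was higher by 1.91 ± 0.49 in KO (adjusted p = 0.0252) and was at 1.02 ± 0.49 in WT. Rgs10 was lower, by -0.63 ± 0.13 in WT and -1.08 ± 0.13 in KO, and Arrb1, a beta-arrestin gene, was lower in KO (-0.72 ± 0.16). Between KO and WT 0 of the 22 were called in either subset. Rgs18 was the closest, at -1.13 ± 0.21 in memory cells (adjusted p = 0.052), on levels under the array median on all 16 arrays. Over both subsets Rgs18 was called lower in KO (-0.79 ± 0.15, limma adjusted p = 0.0404), as 1 of the 22, against 0.194% of all genes.

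The interaction of genotype and subset called 0 of the 7 receptors and 0 of all 22180 genes (0%) by limma, and at an unadjusted p under 0.05 it had 0 receptors and 5.84% of all genes. Its largest receptor value was that of Cxcr5 at 0.46 ± 0.33, with a 95% interval from -0.23 to 1.16. Without array effector KO 1 that Cxcr5 value was 0.20. Comparisons that share a group, such as both that use effector WT, are not independent of each other. Over both genotypes, 3 of the 7 receptors were called between effector and memory cells, Cxcr6 higher and Cxcr3 and Cxcr5 lower, and 12.2% of all genes were.

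Other genes followed single receptors closely over the 16 arrays, among 11398 genes above the array median on at least 8 arrays. The genes most like Cxcr3 were Slc9a9 (r = 0.97), Slfn2 (0.96) and Arhgap26 (0.93), and those most like Cxcr6 were Bspry (0.96), Adgrg1 (0.95) and Fam3c (0.95). Asap1 (0.94), Snx30 (0.87) and Slamf6 (0.86) were most like Cxcr5, and Fbrs (0.90), Rbm26 (0.89) and Prrc2a (0.85) most like Cx3cr1. After the group means were subtracted, Cxcr3 was most like Itpkb (0.90), Cxcr6 most like Pus10 (0.94) and Tgfb1 (0.94), and Cxcr5 most like Nr4a1 (0.93), an early gene of T cell receptor signalling. Slc9a9 and Slfn2 stayed among the top 3 for Cxcr3 on that measure (0.89 and 0.87). For Ccr2, Cxcr4 and Ccr9 the closest genes were Trak1 (0.86), Nfya (0.86) and Rsad1 (0.81). Ccr9 stood out on effector KO 1 (4.26) and lay under the array median on all other arrays. Its r without that array was not computed. These r values are the highest of many and carry no test.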

How the data were processed

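For each of 16 sorted CD8 T cell samples, 1 ng of RNA was amplified with the GeneChip WT Pico kit, per the labels' protocols. The deposited table holds log2 values for 41345 probe sets, normalized by the authors by a method not given in the sources used here. The log base was inferred from the range, 0.7365 to 14.0453. Array medians lay between 4.12 and 4.22. No background level or detection call was used, which limits what a low level can mean. The number of arrays, 4 in a group, limits the precision.

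The platform annotation gave 23521 probe sets with exactly 1 symbol, and 1814 with several symbols and 16010 it does not list were left out. The probe set with the highest mean over the 16 arrays stood for each of 22180 genes. A model with a mean for each group was fitted to the 16 arrays with limma 3.58.1 (R 4.3.3; 12 residual degrees of freedom, prior 4.23), with Benjamini-Hochberg adjustment over all genes in each of 5 comparisons. Averages over both subsets and both genotypes were added after the values were seen. The code was tested on simulated data. The members and lists were chosen with earlier results of these data known. The text names all 7 receptors, list and marker genes among the 4 with the smallest p per comparison, Il7r, Cd44 and Cd8a, and up to 3 genes with the highest r to each receptor. Of the lists' genes, 1 receptor, 1 signalling gene and 6 cell markers were not analysed here. The 6 CD4 T cell and the gamma delta T cell markers (2 measured) had 0 called and 1 called (Blk) between effector and memory WT. Of all genes 3.22% were called there. Blk is in the B and CLL cell list as well, and was already counted among the markers called in that list. The other gamma delta T cell marker, Sox13, was not called, with means of 5.37 in effector WT and 5.19 in memory WT.

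Alternatives were another quantile normalization, centring on array medians, a filter on dim genes, the mean of probe sets, limma with trend and robust settings, array weights, the compared groups alone, replicate blocks, and leaving out each array in turn.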

Additional observations from a re-analysis of the deposited data

Results flagged for a closer look

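In 28 groups of 4 arrays (7 receptors in 4 groups), 2 held an array far from the other 3, and chance alone sets about 1 in 20 such groups apart. Cxcr5 on array memory WT 2 was 7.872, while the other memory WT arrays lay between 8.35 and 8.38. Ccr9 on array effector KO 1 was 4.2597, against 3.30 to 3.41 on arrays 2, 3 and 4 of that group.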

How the results depend on the processing

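Of 1176 receptor differences recomputed under the alternatives, 1140 kept their side of the threshold, 10 lost a call, 26 gained one and 0 called differences reversed; 42 uncalled ones changed sign. Receptors called between effector and memory WT (1) numbered 2 among genes above the array median on 4 arrays and under a replicate block by number, and 3 with array weights, with the compared groups alone and under a replicate block by genotype and number; in KO (1) they numbered 2 with array weights and under either replicate block. The replicate block by number called 1 receptor, Cxcr6, between KO and WT in memory cells (adjusted p = 0.0486) and over both subsets (adjusted p = 0.00413), and both blocks called Cxcr6 between subsets (by number, adjusted p = 0.0354 in WT and 0.0208 in KO; by genotype and number, 0.0233 and 0.0143). The block by genotype and number also called Cxcr5 between subsets in WT (adjusted p = 0.0424) and Cx3cr1 over both genotypes (0.0267); the numbers are not shown to pair the samples, since deviations from group means of same-numbered effector and memory arrays correlated at 0.02 to 0.24, over 0.1 in 6 of 8 pairs, although 7 of 8 effector arrays correlated best with the memory array of their own genotype and number. Over all genes, effector against memory in WT (715) gave 1644 with array weights and 1320 with the compared groups alone, and in KO (1649) 600 with the compared groups alone. KO against WT in effector cells (12) gave 4 with the compared groups alone and 29 under the block by number. In memory cells (25) it gave 42 with array weights, 7 with the compared groups alone and 104 under the block. Over both subsets (43) it gave 92 among brighter genes, 72 with array weights and 389 under the block. The cause of these shifts was not tested. Over the 16 fits without 1 array, receptors called ranged from 0 to 2 in WT, 0 to 2 in KO, 2 to 4 between subsets over both genotypes, 0 to 1 between genotypes with both subsets averaged, and were 0 in the other comparisons. All genes called ranged from 359 to 1037, 961 to 2044 and 2144 to 3221 between subsets (WT, KO, both), from 4 to 42, 11 to 249 and 23 to 329 for KO against WT (effector, memory, both), and from 0 to 5 for the interaction. Of the rescalings, centring on array medians moved the higher share of calls from 32% to 21.9% in memory cells and from 41.9% to 28.6% over both subsets. Ccr9 drops out among brighter genes, and the fixed block by genotype and number gives no KO against WT difference.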
